A study of Homo sapiens with 8 samples.

Results

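The peaks described here are the differential m6A peaks that the deposited table draws as several blocks, that is, as pieces of exon separated by stretches left out of the peak. They were chosen by the block count alone, at 2 or more, and there are 452 of them among 1262 listed peaks (35.8%), under 404 gene IDs. The other 810 peaks lie in 1 block and serve as the reference. The peaks come from MeRIP-seq of ARPE19, an established human retinal pigment epithelium line, in which fragmented mRNA bound by an antibody to m6A (IP) was compared with mRNA taken before the pull-down (input). The shNC+LPS group carried the negative control lentivirus and the shMET+LPS group the lentivirus that silences METTL3, and cells of both groups had LPS at 1 μg/ml for 24 h. Each group had 3 IP libraries and 1 input library, and every group here had LPS, so cells without it are not part of these peaks.

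In N6-methyladenosine (m6A) an adenosine of the RNA carries a methyl group. METTL3 transfers that group in the nucleus, METTL14 helps it to hold the RNA, and WTAP keeps both in nuclear speckles. The mark is densest in long internal exons and around the stop codon, where the last exon begins. Exon junction complexes, which are left on the mRNA just upstream of each splice junction, are known to keep methylation away from the ends of exons, so short internal exons between junctions usually carry little of it.

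Values in the table are the authors' own, with the libraries of a group already combined, so there was no spread between replicates to set a difference against and the depth of each library is unknown. Only peaks called different are listed, and the largest q-value among them, recovered from a rounded logarithm, was 0.0501. Fold enrichment is the ratio of IP over input. The change is a log2 fold change whose direction the table does not state. A negative value was taken to mean less m6A in shMET+LPS, since the 13 genes that the study had picked for lower m6A had 16 peaks and each was negative. The paper also reports, from a separate assay, a decreased m6A rate in METTL3-silenced ARPE19 cells. It further counts more genes with downregulated than with upregulated m6A. With the opposite reading every direction below would turn. Intervals in the text are at the 95% level, cover counting error or the spread between peaks only, and treat peaks as independent. They say nothing of the spread between cultures.

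A block edge inside a peak should be a splice site if the peak follows a spliced transcript, and the sequences that show this are printed first. Introns start with GT and end with AG in nearly all human genes. RefSeq windows around gene starts and RefSeq miRNA hairpins (GRCh38.p14) covered 29 inner edges of 22 peaks. At all 12 upstream edges the gap began with GT. In the following windows, read 5′ to 3′ on the strand of the peak, capitals mark the last bases of the block and lower case the first bases of the gap. XPO1, the main nuclear export receptor, is shown from chr2:61538477-61538506 (minus strand), SPEN, a transcriptional repressor, from chr1:15848136-15848165 (plus), ITGB5, an integrin subunit, from chr3:124796373-124796402 (minus), and ZC3H12A, an RNase that degrades inflammatory mRNAs, from chr1:37474615-37474644 (plus).
XPO1: CGCTGCTGAAAAGAGgtaggggccgaagcg
SPEN: CGAGCATTTCAAACGgtgagtgacacgagg
ITGB5: GAGTCCTCTGCTCAGgtaagtgtccccagc
ZC3H12A: CTGGCGCATGGCGGGgtgaggcgcggcggg

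At the downstream edges, where a block resumes, AG stood at the end of the gap in 4 of 17. Of these 4, only that of SBF2-AS1 came from a window around a gene start. Those of ARHGEF2, RPS19 and MYH9 were read from annotated hairpins whose last base was the last base of the gap. For 2 such hairpins the final 30 bases are shown as RNA, with the closing AG in capitals. MIR6797 (chr19:41869669-41869698, plus) ended at a block of RPS19, a ribosomal protein gene, and MIR6819 (chr22:36286847-36286876, minus) at a block of MYH9, which encodes the heavy chain of nonmuscle myosin.
MIR6797: ggggccugcaugacccuucccuccccacAG
MIR6819: uggggugccaagccucuguccccaccccAG

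The other 13 downstream edges had no AG. In 9 of them the block began within 50 bases of a RefSeq start on the same strand, and in 4 within 10 bases. The windows below have the end of the gap in lower case and the start of the block in capitals. They come from NR2F1, a nuclear receptor gene (chr5:93587086-93587115, plus), FOSL2, an AP-1 subunit gene (chr2:28392843-28392872, plus), HNRNPD, a gene for an RNA-binding protein of AU-rich elements (chr4:82373977-82374006, minus), and TBC1D2, a Rab GTPase-activating protein gene (chr9:98213536-98213565, minus).
NR2F1: atgcttacgttttgcATTCAGATGGTTAAT
FOSL2: tgaactcgtgccattGTAGTGACTCATCTC
HNRNPD: acgcgccgttcttccGTCGGCCATTTTAGG
TBC1D2: ctcacttagtttcccAACTGCCCAGTAGGT

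These 4 blocks began 2, 0, 0 and 1 bases after a RefSeq start. Whether another transcript of the gene starts at these edges was not tested. It is also not known whether the 2 blocks of NR2F1, of 496 and 74 nt with 1614 nt between them, lie on 1 spliced mRNA. Not every gap was shown to be an intron of 1 transcript, so the blocks are called only the exon pieces that the authors' calling joined. Of the 8 downstream edges more than 50 bases from a start on the same strand, 4 also lacked AG. Why an edge lacked AG was not tested. These were in VIM and LMNB2, at gaps of 18 and 41 nt, in KRT7, a keratin gene, at a gap of 2025 nt, and at the other gap of FOSL2, of 257 nt. The windows are mostly centred on starts and the edges are few, so neither share can be carried over to all gaps. Over the 653 gaps outside chromosome 8, for which no start table was used, 4 (0.613%) had a downstream block that began within 10 bases of a RefSeq start, which is not a rate of edges without AG. At the remaining gaps the sequence was not analysed here.

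Peak widths carried a second trace of how the peaks were made. The spliced width, the sum of the blocks, was within 1 nt of a multiple of 30 in 76.5% of the 452 peaks and in 82.3% of the 810 single-block peaks, where 10% of whole numbers would be. The genomic span of the same 452 peaks, gaps included, met this in 9.96%. The regular step lay on the joined blocks and was absent from the span.

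The 452 peaks held 1132 blocks and 680 gaps. Most were simple, with 311 peaks of 2 blocks, 99 of 3, 25 of 4 and 17 of 5 or more. Blocks measured 131.5 nt at the median, from 1 to 4059 nt. Internal blocks, which have a gap on both sides, had a median of 141 nt (n = 228), and 108 of them (47.4%) were between 100 and 200 nt. They would be whole exons only where both gaps are introns. Only 17 internal blocks reached 400 nt, but a peak that ends inside a long internal exon shows it as an end block, so this does not count such exons. End blocks, where a peak can stop inside an exon, were more spread, with a median of 75 nt at the 5′ end and 189 nt at the 3′ end.

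**Figure D1:**
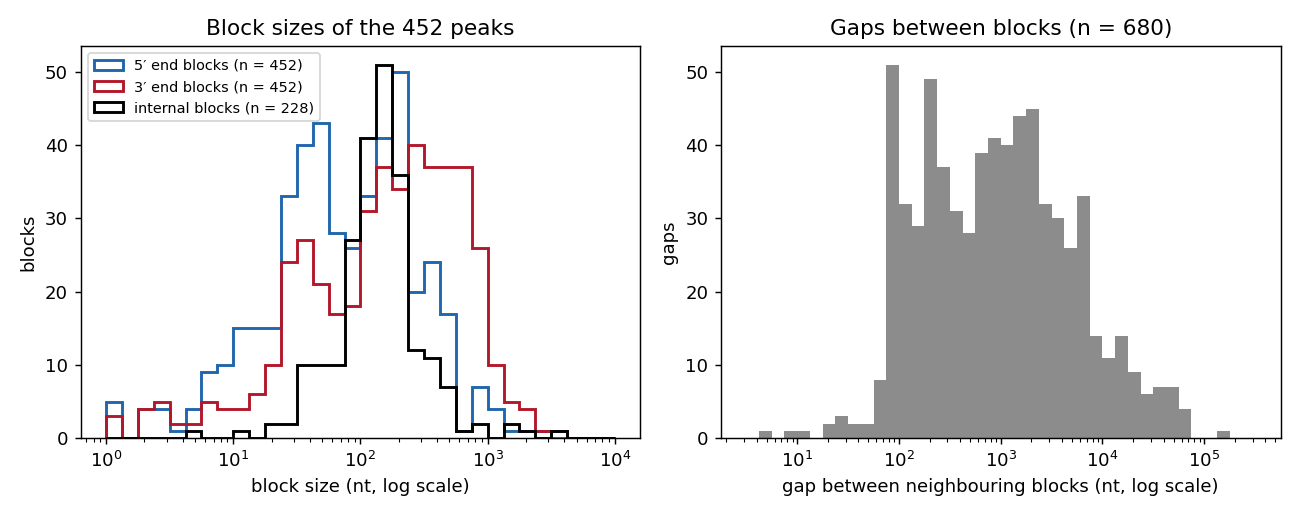
Left, sizes of the blocks of the 452 peaks on a log axis, with blocks at the 5′ end (n = 452), at the 3′ end (n = 452) and between them (n = 228) as separate outlines. Right, the 680 gaps between neighbouring blocks on a log axis. Internal blocks gather around their median of 141 nt, 3′ end blocks reach further right than 5′ end blocks, and few gaps fall under 70 nt.

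The size of an internal block was a multiple of 3 for 107 of 228 (46.9%), where 33.3% of whole numbers are. Whether these blocks are coding was not tested. In COL4A1 and COL4A2, the genes for the chains of basement membrane collagen IV, 11 of 23 internal blocks (47.8%) were a multiple of 9, against 22 of the other 205 (10.7%). Collagen chains repeat a glycine-led triplet of amino acids, and many collagen exons are whole numbers of such triplets. These genes were singled out after their block sizes were seen.

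Very short blocks were frequent at the ends. Of 112 blocks under 20 nt, 74 lay at the 5′ end, 36 at the 3′ end and 2 inside, and 8 blocks had 1 nt. A block under 20 nt at any place was present in 108 peaks (23.9%). With such blocks left out, 381 peaks would still have several blocks. In RAB21, a gene for an endosomal GTPase, the blocks were 415 and 6 nt with a gap of 14511 nt, and in ZNF516, a zinc finger gene, 8 and 383 nt with 60941 nt between them.

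Gaps had a median of 859 nt and ran from 5 to 161450 nt, and 343 of 680 (50.4%) were from 70 to under 1000 nt. A gap of at least 10000 nt was present in 55 peaks (12.2%). The longest was in the antisense gene C1QTNF7-AS1, whose 3 blocks of 8, 113 and 114 nt were spread over 197121 nt. IGFBP7-AS1 followed with 69174 nt, VEGFC, which encodes a lymphatic growth factor, with 62418 nt, ZNF516, and LRRC37A2 with 58053 nt. At the other end, 14 gaps in 14 peaks were under 70 nt, which is shorter than nearly all human introns. Such gaps were 21 nt in FOSL2, 18 nt in VIM, the gene of the intermediate filament vimentin, and 41 nt in LMNB2, a nuclear lamin gene. Over all 452 peaks the genomic span was 2072 nt at the median and 4.02 times the spliced width.

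**Figure D2:**
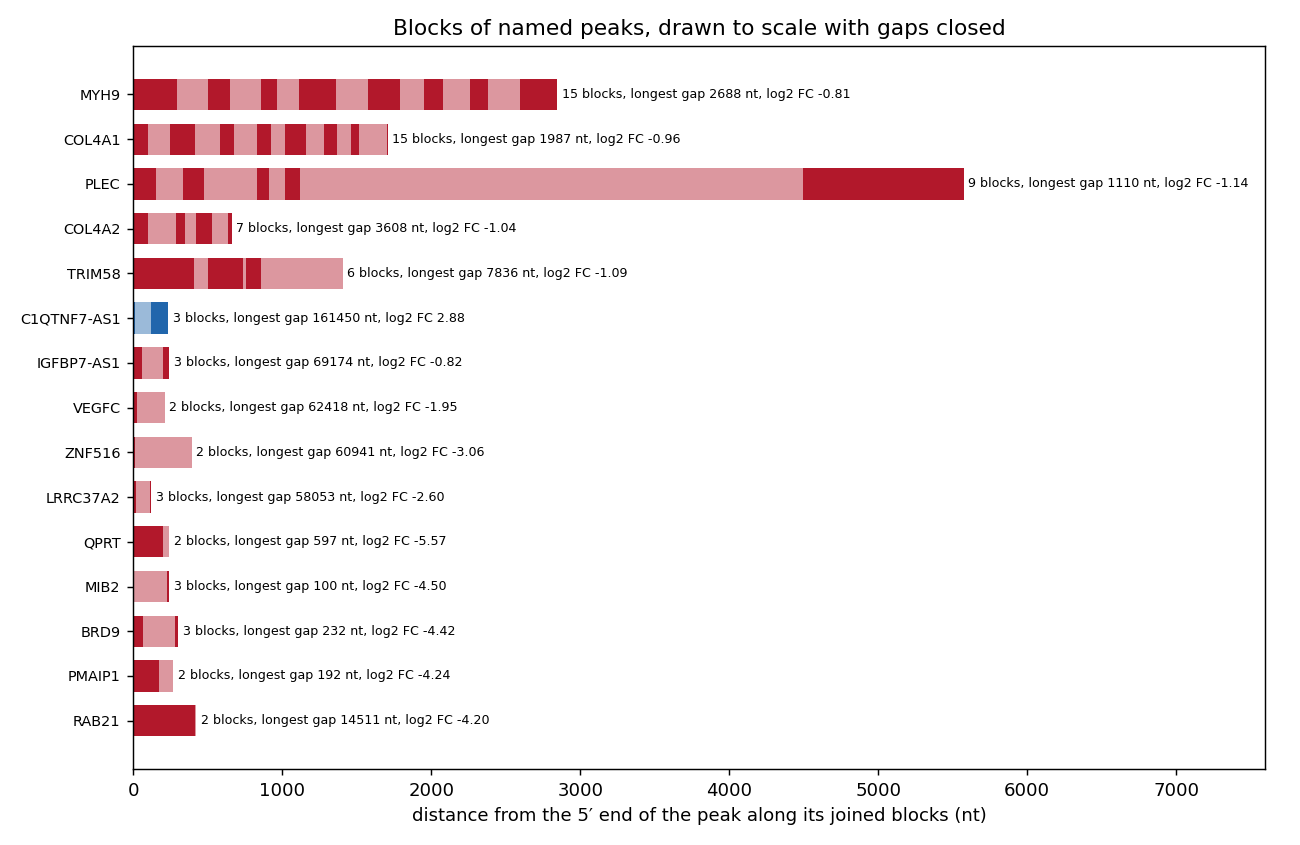
Blocks of the 5 peaks with most blocks, the 5 with the longest gap and the 5 with the most negative log2 fold change, to scale along the joined blocks from the 5′ end of the peak, with neighbouring blocks in alternating shades (red for a negative and blue for a positive log2 fold change). MYH9 and COL4A1 have 15 blocks each, PLEC has a block of 3381 nt, and several of the others consist of 1 long block with a sliver at the side.

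The largest block held a median of 83.4% of a peak's width, and at least 90% in 158 peaks. It was the last block in 248 peaks (54.9%), the first in 132 and an internal block in 72. Among the 311 peaks of 2 blocks, the 3′ block was the larger in 207 (66.6%), and the medians were 77 nt for the 5′ and 258 nt for the 3′ block. This order went with the genomic strand. Of the 104 with the larger 5′ block, 76 were on the plus strand, and of the 207 with the larger 3′ block, 80 were. Of all 311, 156 were on that strand. Why the strands differed was not tested, and no comparison of block order was taken within a strand. Most of these peaks thus entered a long stretch from a short piece of the exon before it.

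**Figure D3:**
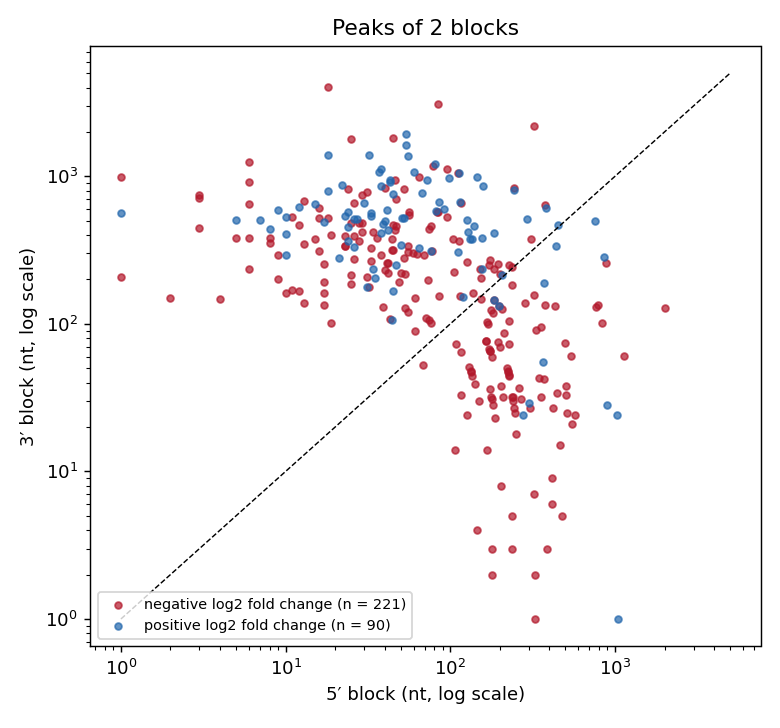
Sizes of the 5′ and the 3′ block of the 311 peaks of 2 blocks, both on log axes, with red for a negative and blue for a positive log2 fold change and a dashed line where both blocks are equal. More points lie above the line (207) than below it (104), and blue points are rarer below it.

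By position in the gene, the several-block peaks lay less often at the 3′ end than the single-block peaks. Inside a RefSeq gene span, cut into 3 equal parts, 220 of 406 (54.2%, Wilson interval 49.3% to 59.0%) were in the 3′ part, against 66.5% (63.1% to 69.8%) of 750 single-block peaks. In the middle part the shares were 25.1% (21.2% to 29.6%) and 12.5% (10.4% to 15.1%), and in the 5′ part 20.7% and 20.9%. Spans contain introns, so these parts are not the untranslated and coding regions. Only a peak that crosses a gap can have several blocks, and how exons lie along these spans was not taken into account.

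A RefSeq start, taken as the first 50 transcribed bases, was covered by 39 of 438 several-block peaks (8.90%) and by 44 of 782 single-block peaks (5.63%). In 26 of the 39 (66.7%) the first block was the largest, against 26.1% of the 399 peaks away from starts. The peak of SRRM2, which encodes a spliceosome scaffold, covered all 50 bases with blocks of 226 and 104 nt, and that of TLN1, the gene for the integrin-linking protein talin, with 201 and 70 nt. Their first 30 transcribed bases are shown in lower case, from chr16:2752638-2752667 (plus) and chr9:35732166-35732195 (minus). GNAI2, a G protein gene (chr3:50236204-50236233, plus), is added with a match to the searched letters in capitals.
SRRM2: gtgctgacgtgcagcgcggcccaggcgggg
TLN1: gttcccaggacggaagtggccgagagagtg
GNAI2: agtcgctcgGAACTgccgacccgagtgctt

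The searched letters were GG or GA followed by ACT or ACA, a part of the context in which m6A is commonly found, and they were looked for in the first 50 transcribed bases on both strands. Of the 41 starts under several-block peaks, 4 (9.76%) held at least 1 of them on the transcribed strand, and 4.88% on the other strand. The 44 starts under single-block peaks had 11.4% and 15.9%. Over all 35116 starts the shares were 16.2% and 16.3%. With so few starts the shares are a description, and the rest of each peak was not searched.

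Fold enrichment of IP over input was close to that of the reference. Its median was 8.78 (order-statistic interval 7.86 to 10.4) for the 452 peaks and 8.18 (7.21 to 9.56) for the single-block peaks. A fold enrichment of at least 2 was reached by 441 of the 452, against 1209 of all 1262 peaks and 768 of the 810 single-block peaks. Wider peaks were the more enriched ones, with a Spearman correlation of 0.68 between spliced width and log2 fold enrichment over the 452 peaks, which share their libraries. Because of this, the peaks were compared within 5 groups of spliced width.

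From the narrowest to the widest group (116 to 240, 241 to 359, 360 to 480, 481 to 719 and 720 to 5574 nt), the median fold enrichment of the several-block peaks was 2.83, 6.06, 8.60, 13.6 and 24.5. The single-block peaks had 2.75, 5.78, 9.81, 16.4 and 27.4. At similar width, the mean log2 fold enrichment of several-block peaks differed by -0.09 (-0.22 to 0.04), an interval that spans 0. Peaks of 3 or more blocks were less enriched than single-block peaks of similar width, by -0.36 (-0.56 to -0.15) on the log2 scale, and those of 2 blocks differed by 0.03 (-0.11 to 0.18). The comparison at 3 or more blocks was set with the other alternatives, with earlier results of these data known, whereas 2-block peaks alone and the place of the largest block were taken up after values were seen.

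**Figure D4:**
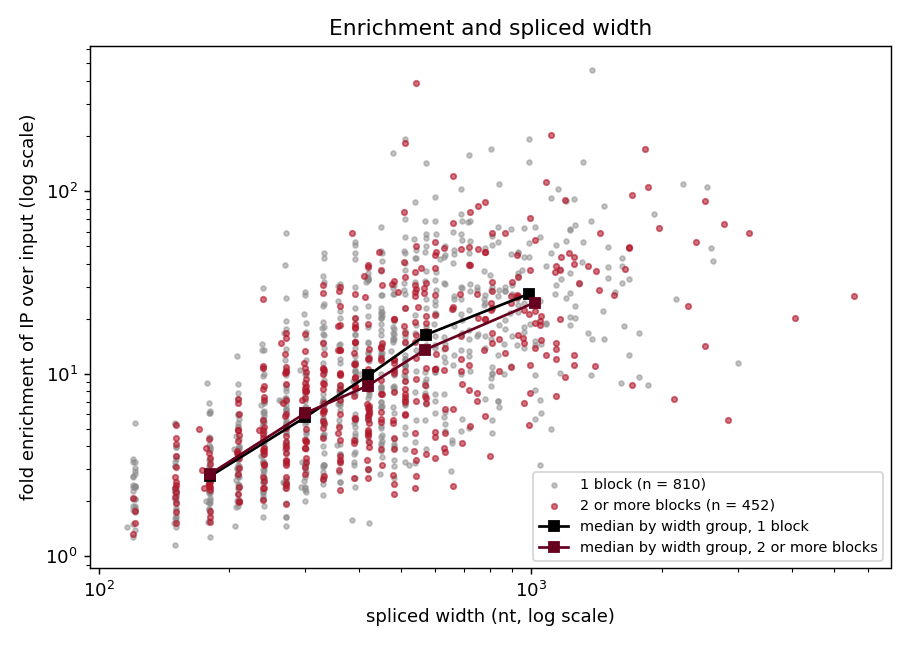
Fold enrichment of IP over input against spliced width for each peak, both on log axes, with single-block peaks in grey and peaks of 2 or more blocks in red. Squares joined by lines give the medians in the 5 width groups, which rise together from 2.75 to 27.4 for single-block and from 2.83 to 24.5 for several-block peaks.

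The most enriched several-block peak was in MAGI3, which encodes a scaffold protein of cell junctions. It had a fold enrichment of 391 in blocks of 26 and 514 nt. CEP152, a centriole assembly gene, had 204, TSC22D2 had 183, DYRK2, which encodes a protein kinase, had 169, and TERF2, the gene of a telomere-binding protein, had 121. All 5 had 2 blocks with a short 5′ piece of 6 to 37 nt and a long 3′ block.

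m6A was lower in the METTL3-silenced cells at 341 of the 452 peaks (75.4%, Wilson interval 71.3% to 79.2%) and higher at 111. Over all 1262 peaks 72.1% were lower, and over the single-block peaks 70.2% (67.0% to 73.3%), so the share by itself was near the background. A log2 fold change of 1 or more in size was reached by 338 (74.8%), against 77.3% of all peaks, and a q-value at or under 0.01 by 334 (73.9%), against 68.5% of all peaks. The median log2 fold change was -1.62 over the 341 lower peaks, which leaves 32.5% of the control level, and -1.74 over the lower single-block peaks. Over the higher peaks it was 0.93 and 1.40. At similar width, the mean absolute log2 fold change of several-block peaks differed from that of single-block peaks by -0.16 (-0.25 to -0.07). With a q-value at or under 0.01 it was -0.0671 (-0.169 to 0.0344), an interval that includes 0, and when each was set against the single nearest width the sign turned, so a smaller change was not found under every choice. Lower peaks were less enriched over input than higher ones, with median fold enrichments of 7.12 and 21.0, and narrower, at 389 and 600 nt.

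Direction went with the number of blocks. Of the 2-block peaks 71.1% (65.8% to 75.8%) were lower, of the 3-block peaks 82.8% (74.2% to 89.0%), of the 4-block peaks 84.0% (65.3% to 93.6%), and of those with 5 or more blocks 17 of 17 (100%, 81.6% to 100%). The 17 belong to 16 IDs. The size of the fall did not follow the same order, with medians among lower peaks of -1.71, -1.62, -1.54 and -1.09. Over the 452 peaks the Spearman correlation of block number with log2 fold change was -0.07.

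The difference held at similar spliced width for peaks of 3 or more blocks and not for those of 2. In the 5 width groups, peaks of 3 or more blocks were lower in 92.9%, 100%, 93.5%, 78.6% and 69.2%, and single-block peaks in 92.3%, 77.2%, 71.3%, 53.9% and 51.0%. The narrowest group has 14 peaks of 3 or more blocks and shows no gap between the kinds. Averaged over the groups, the share of lower peaks was 19.6 percentage points (13.0 to 26.2) above that of single-block peaks for 3 or more blocks, and 2.14 points (-3.42 to 7.70) for 2 blocks. Over all 452 peaks it was 7.57 points (2.69 to 12.5), and with a q-value at or under 0.01 it was 3.19 (-2.48 to 8.86), an interval that includes 0. For 3 or more blocks it ran from 16.4 to 24.1 points over the alternatives of filter, overlap, short blocks and starts, and every interval stayed above 0. For 2 blocks it ran from -3.14 to 6.31, and only the last, with changes of 1 or more in size, had an interval above 0 (0.382 to 12.2). The number of blocks was not separated from the place of the largest block, which can be internal only in peaks of 3 or more blocks. For 2-block peaks with the larger 5′ block alone the difference was 13.2 points (6.82 to 19.6).

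**Figure D5:**
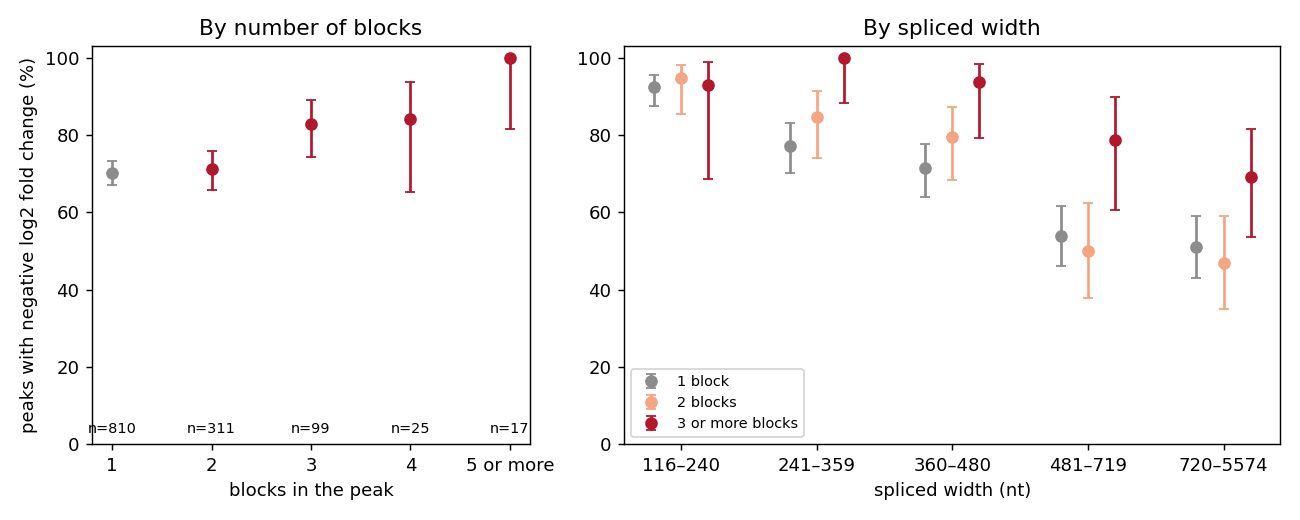
Share of peaks with a negative log2 fold change (lower in shMET+LPS) by number of blocks, left, and by spliced width for 1, 2 and 3 or more blocks, right, with 95% Wilson intervals as bars. The share rises from 71.1% at 2 blocks to 100% at 5 or more, and from the second width group on the points for 3 or more blocks lie above those for 1 block.

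The place of the largest block split the peaks in the same way. Where it was the first block, 119 of 132 (90.2%, 83.9% to 94.2%) were lower, and where it was internal, 64 of 72 (88.9%, 79.6% to 94.3%). Where it was the last block, 158 of 248 (63.7%, 57.6% to 69.4%) were lower. Against single-block peaks of similar width, the shares were 17.0 points higher (11.3 to 22.7), 21.1 points higher (13.6 to 28.6) and different by -1.37 points (-8.03 to 5.30). Over the alternatives of filter, overlap, short blocks, short gaps and starts, the difference with the largest block first ran from 13.6 to 19.3 points. Every interval stayed above 0. With the largest block last the difference ran from -7.60 to 3.68, so its sign turned, and every interval included 0. The alternatives of 10 width groups and the nearest width were not tried for peaks split by block number or by largest block. Among 2-block peaks alone, those with the larger 5′ block were lower in 88.5% and those with the larger 3′ block in 62.3%. Their median widths were 300.5 and 480 nt. Against single-block peaks of similar width, these shares differed by 13.2 points (6.82 to 19.6) and by -3.43 points (-10.5 to 3.63). Median fold enrichment was 6.76 with the largest block first and 12.2 with it last, and the peaks were 330 and 494.5 nt wide. These kinds also differed in strand. On the plus strand were 93 of the 132 with the largest block first, 34 of the 72 with it internal and 100 of the 248 with it last. Directions were not compared within a strand, so the part of strand in this contrast was not tested.

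Peaks at a RefSeq start were mostly lower. Of the 39, 37 were lower (94.9%, 83.1% to 98.6%), against 295 of 399 away from starts (73.9%, 69.4% to 78.0%), and 38 of 44 single-block peaks at starts were lower (86.4%). With peaks at starts left out, those with the largest block first were lower in 87.7% (n = 106), 15.9 points (9.28 to 22.5) above single-block peaks of similar width. By the 3 parts of the gene span, 74 of 84, 73 of 102 and 154 of 220 several-block peaks were lower from 5′ to 3′, and 87.3%, 70.2% and 65.5% of single-block peaks. The fall in share toward the 3′ end was thus found in both kinds of peak.

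Peaks with a long gap were less often lower. Ranked by their longest gap and divided into 3 groups (5 to 604, 615 to 2688 and 2708 to 161450 nt), 82.1%, 77.3% and 66.9% were lower, with median fold enrichments of 7.01, 8.24 and 11.9. Width was 389, 477.5 and 479 nt in these groups, and its part in the trend was not tested. Where 1 block held at least 90% of the width, 63.3% were lower, and where the largest block held under 60%, 90.4%. Median widths were 538 and 420 nt, and this contrast was not taken at similar width.

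Of the 17 peaks of 5 or more blocks, all lower, 4 were in genes of an actin and cytoskeleton list and 2 in genes of an extracellular matrix list, which held 14 and 6 of the 452 several-block peaks. MYH9 had 15 blocks of 105 to 291 nt, 2845 nt in all, with a fold enrichment of 5.56. Its log2 fold change was -0.81, and another peak of 5 blocks had -0.77. COL4A1 had 15 blocks with -0.96 and COL4A2 7 with -1.04. PLEC, which encodes the cytoskeletal linker plectin, had 9 blocks and 5574 nt, the widest peak of the table, with a fold enrichment of 26.5. Its log2 fold change was -1.14. TRIM58, a ubiquitin ligase gene, had 6 blocks with -1.09. EZR, the gene of the membrane-cytoskeleton linker ezrin, also had 6 blocks, with -0.56, the smallest change among the 17 peaks of 5 or more blocks. The largest of those changes was -2.96 in SART1, which encodes a spliceosome protein.

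A list of 20 actin and cytoskeleton genes had several-block peaks in 8 genes, and 14 of 14 were lower, where 75.4% of all several-block peaks and 72.1% of all peaks were. PLEC gave 4 of the 14 and FLNC 3, so they are not 14 separate genes. The single-block peaks of the same list were lower in 16 of 16, so both kinds of peak had 1 direction in this list. The median of the 14 was -1.25 in log2 fold change and 3.80 in fold enrichment, below the 8.78 of all several-block peaks. FLNC, which encodes the actin crosslinker filamin C, had 3 such peaks with -1.48, -1.93 and -2.22, and FLNA, its paralog, had 3 blocks with -1.20. TLN1 had -2.16, ACTN1 and ACTN4, which encode alpha-actinins, had -0.91 and -1.04, and DST, a spectraplakin gene, had -0.74. PLEC had 4 several-block peaks, from -1.14 to -1.60. Among 24 extracellular matrix genes, COL4A2 had 5 several-block peaks and COL4A1 had 1, all 6 lower with a median of -1.56, a count from only 2 genes beside the 75.4% of several-block peaks and 72.1% of all peaks that were lower. Of the 4 single-block peaks of that list, 2 were lower.

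In the set lists of exon junction complex genes and of SR proteins and splicing factors, 4 of 11 listed peaks had several blocks, near the 35.8% of all peaks. Other spliceosome genes with peaks, such as SART1, are outside these lists. ACIN1, a component of a complex that joins the exon junction complex, was the only 1 of 17 listed genes of that complex and its partners with a several-block peak, at a log2 fold change of -2.46. The 3 other genes of that list with a peak, UPF2, PNN and SMG6, had single-block peaks. Of 24 genes for SR proteins and splicing factors, SRRM2 had -3.94 at its start and -0.94 in another peak, and SRSF5, an SR protein gene, had 0.77 with a fold enrichment of 50.1. Of 20 genes of the m6A machinery, WTAP alone had a peak, in 1 block. ICAM1, an adhesion molecule induced by inflammatory signals, was the only gene with a several-block peak among 17 of LPS and NF-kB signalling, and it was higher, at 0.81. No gene of the tight junction list had a listed peak.

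The study's own choice of genes for lower m6A included 5 with several-block peaks. All 6 peaks were lower, which follows from that choice and from the reading of the sign and is no independent evidence. They were VEGFC with -1.95, NR2F1 with -1.19, LOXL2, a lysyl oxidase gene, with -1.08 and -1.18, ETS1, a transcription factor gene, with -2.13, and FURIN, which encodes a proprotein convertase, with -2.31. Of the 13 genes, the other 8 had only single-block peaks. Of 13 retinal pigment epithelium markers, KRT8 had a peak, in 1 block, and no gene of the short lists of fibroblast (5 genes), endothelium (4) and leukocyte (3) markers that were looked up had any. A list of differential peaks does not show which genes are expressed, so the labelled cell type was not checked by this.

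The largest falls were in QPRT, an enzyme gene of NAD synthesis, at -5.57, in MIB2, a ubiquitin ligase gene, at -4.50, in BRD9, a subunit gene of a chromatin remodeller, at -4.42, in PMAIP1, which encodes the apoptosis inducer NOXA, at -4.24, and in RAB21 at -4.20. These leave 2.11% to 5.44% of the control level. Their spliced widths ran from 240 to 421 nt, none above the 421 nt median of several-block peaks. The largest rises were in INO80C, another remodeller subunit gene, at 3.91, in ZNF432 at 3.84, in MAGI3 at 3.71 and in TRIM23 at 3.36, and each had 2 blocks. Their q-values ran from 0.00871 to 0.0457.

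The same gene could carry both kinds of peak. Of 46 IDs with several-block and single-block peaks, the several-block peaks were the more enriched in 22 and the single-block peaks in 24, comparing medians per ID. The log2 fold change was the more negative in the several-block peaks of 23. Both kinds were negative in 30 IDs and positive in 7, and they went opposite ways in 9. The several-block peaks were the wider ones in 28 of the 46 IDs, and no allowance for width was made in this comparison. At least 2 several-block peaks were listed for 38 IDs, which had 86 peaks, and 34 of these IDs had 1 direction only.

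Some regions were listed more than once. In 43 pairs a several-block peak shared bases with another peak, 26 on opposite strands and 17 on the same strand, and 42 of the pairs had 1 direction. The median difference in log2 fold change within a pair was 0.16. Kept once, 424 several-block regions were left, of which 76.4% (72.1% to 80.2%) were lower, and 86.8% (80.0% to 91.5%) of the 136 with 3 or more blocks. Of the 404 IDs, 384 could be named by position, and 370 of these names are of protein-coding genes, 12 of lncRNA genes and 2 of pseudogenes. The 20 unnamed IDs are counted in all totals.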

How the data were processed

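The members and lists were chosen with earlier results of these data known. The submitters' processing notes name CASAVA, fastp 0.19.11, MACS2 2.1.0 and hg38. The column names have the form used by exomePeak, and which program made the table is not given in the sources used here. Its deposited values are a ratio (fold enrichment of IP over input), a log2 fold change between the groups and, as a score, the log10 of that comparison's q-value, all made by the authors from combined libraries of 8 samples. These are the authors' own comparisons, and no test between groups was run on them. Block counts, sizes and offsets, deposited in a genome-browser layout, were turned into 1-based positions. Names were taken from the RefSeq gene (GRCh38.p14) whose span holds or touches an ID's peaks, on the same strand where the strand was known. Sequences are from RefSeq. For chromosome 8 (14 members) none was used.

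Genes named are the top 5 by block number, longest gap, fold enrichment and fall, the top 4 by rise, with overlapping peaks counted once, and members of set lists. EZR, SART1 and the genes shown for sequence or short blocks were chosen after their values were seen. Differences at similar width are means over 5 width groups, weighted by the several-block peaks, with intervals from the variance between peaks. The calculation was tested on simulated data. Alternatives were a block rule of 3, blocks under 20 nt left out, q-value at or under 0.01, absolute log2 fold change of at least 1, fold enrichment of at least 2, overlaps kept once, 1 peak per ID, 10 width groups and the nearest width. Closing gaps under 70 nt, leaving out starts or opposite-strand overlaps, and averaging peaks of equal width were added after seeing the data. The scripts ran under Python 3.11.15 with SciPy 1.17.1, NumPy 2.4.6, Matplotlib 3.10.9 and pandas 2.3.3.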

Additional observations from a re-analysis of the deposited data

How the results depend on the processing

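Of 96 alternative values, 80 stayed within the interval of the first value. With 3 or more blocks, the share of lower peaks was 85.1%, the difference in share 19.6 points and that in mean log2 fold enrichment -0.36. With a q-value at or under 0.01, single-block peaks were lower in 74.2% with a median fold enrichment of 7.03, and at similar width the differences were 0.0555 in mean log2 fold enrichment and -0.0671 (-0.169 to 0.0344) in mean absolute log2 fold change, against -0.16 at first. With changes of 1 or more in size on the log2 scale, the shares of lower peaks were 85.5% (several blocks) and 74.4% (1 block) and the median fold enrichments 7.34 and 7.06; this limit was not applied to results on the size of change. With 1 peak per ID the medians were 10.5 and 9.61. Against the single nearest peak in log width, the differences were 13.1 points in share, 0.10 in mean log2 fold enrichment and 0.0262 in mean absolute log2 fold change, the last with its sign turned. Widths repeat, and that choice drew on 140 of the 810 single-block peaks. When peaks of equal width were averaged, the differences were 7.95 points, -0.02 and -0.16. The cause of the other shifts was not tested.

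Libraries were not paired and no replicate was left out, since values of single libraries are absent from the table. No paired analysis was possible. Depth is unknown, so which peaks rest on few reads cannot be told.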
